A study of Mus musculus with 52 samples.

Results

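The leukocytes of untreated MC38-CEACAM5 tumors were compared with the whole tumors they sit in. The sorted samples are 4 libraries of CD45+Ly6G- cells taken from tumors (titles numbered 6, 7, 9 and 10), and the other side is 4 libraries of whole tumor (titles numbered 1, 2, 4 and 5). They were chosen by their titles and labels, and are 8 of the 52 libraries of the series. All 8 come from vehicle-treated hCD40tg mice, which carry human CD40, inoculated with MC38-CEACAM5, a mouse colon carcinoma line that carries the human tumor antigen CEACAM5. No group in the comparison received an antibody. The CD40 transgene and the CEACAM5 tumor antigen are therefore shared by both sides. The sources used here do not give the strain, age and sex of the mice, the promoter of the transgene or the time of sampling. The sorted cells and the whole tumors carry different numbers in their titles, so no whole tumor is matched to its own leukocytes. The labels do not say that each library is a separate animal, so the p-values below measure only the spread between these libraries.

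CD45, encoded by Ptprc, is a tyrosine phosphatase on the surface of nucleated blood cells, and sorting on it keeps leukocytes and leaves behind carcinoma cells, fibroblasts, vessels, nerve and fat. Ly6G marks mouse neutrophils, so the Ly6G- part of the gate removes them. In a transplanted carcinoma the retained cells are typically monocytes and macrophages with some dendritic cells, T cells and NK cells. The discarded cells build the matrix and supply many of the growth factors and chemokines that leukocytes read through their receptors. A whole tumor library mixes both, so a gene's share of the library falls when its cells are few.

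Sequencing depth was 30239560 to 47447640 counts in the sorted libraries and 49034947 to 60694269 in the tumor libraries. With edgeR's quasi-likelihood test and Benjamini-Hochberg adjustment over 17334 genes, 12695 genes (73.2%) differed at an adjusted p under 0.05, 5883 of them (33.9%) higher in the sorted cells and 6812 (39.3%) lower. The median gene changed by -0.12 on the log2 scale. At least 10 counts were reached by 15723 genes on average in the sorted libraries and 17702 in the tumors, and the groups did not overlap (exact permutation test, two-sided p = 0.0286, the smallest that 4 against 4 libraries can give). Single-library values below are CPM, counts scaled to library totals after these were adjusted by edgeR's normalization factors (TMM). They are therefore not plain shares of a library's counts. Their order is sorted 6, 7, 9 and 10, then tumor 1, 2, 4 and 5. Changes are log2 of sorted over tumor with their standard error (SE). In these bulk libraries fewer cells of a type and less RNA per cell cannot be told apart.

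The genes of both gate markers were checked first. Ptprc (ENSMUSG00000026395, chromosome 1, 138062861 to 138175708, minus strand, GRCm38) had 1636, 1725, 1494 and 1772 CPM in the sorted libraries against 277, 233, 171 and 165 CPM in the tumor libraries. Every sorted library was above every tumor library, and the change was 2.97 ± 0.18 (adjusted p = 6.58e-07), a 7.83-fold difference. Ly6g, the gene of the excluded marker, had 5 counts over the 4 sorted libraries and 4 over the 4 tumors, and was not tested. All 16 of the pan-leukocyte genes listed for this comparison were higher in the sorted cells, with a median change of 2.57, beside 33.9% of all genes. They run from Cd53, a tetraspanin (1.80 ± 0.14), to Cytip, a cytohesin-binding protein of lymphocytes and dendritic cells (3.21 ± 0.25). Together the 16 genes took 1.12 to 1.32% of the counts in the sorted libraries and 0.209 to 0.297% in the tumors, where tumor 1 was the highest.

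**Figure D1:**
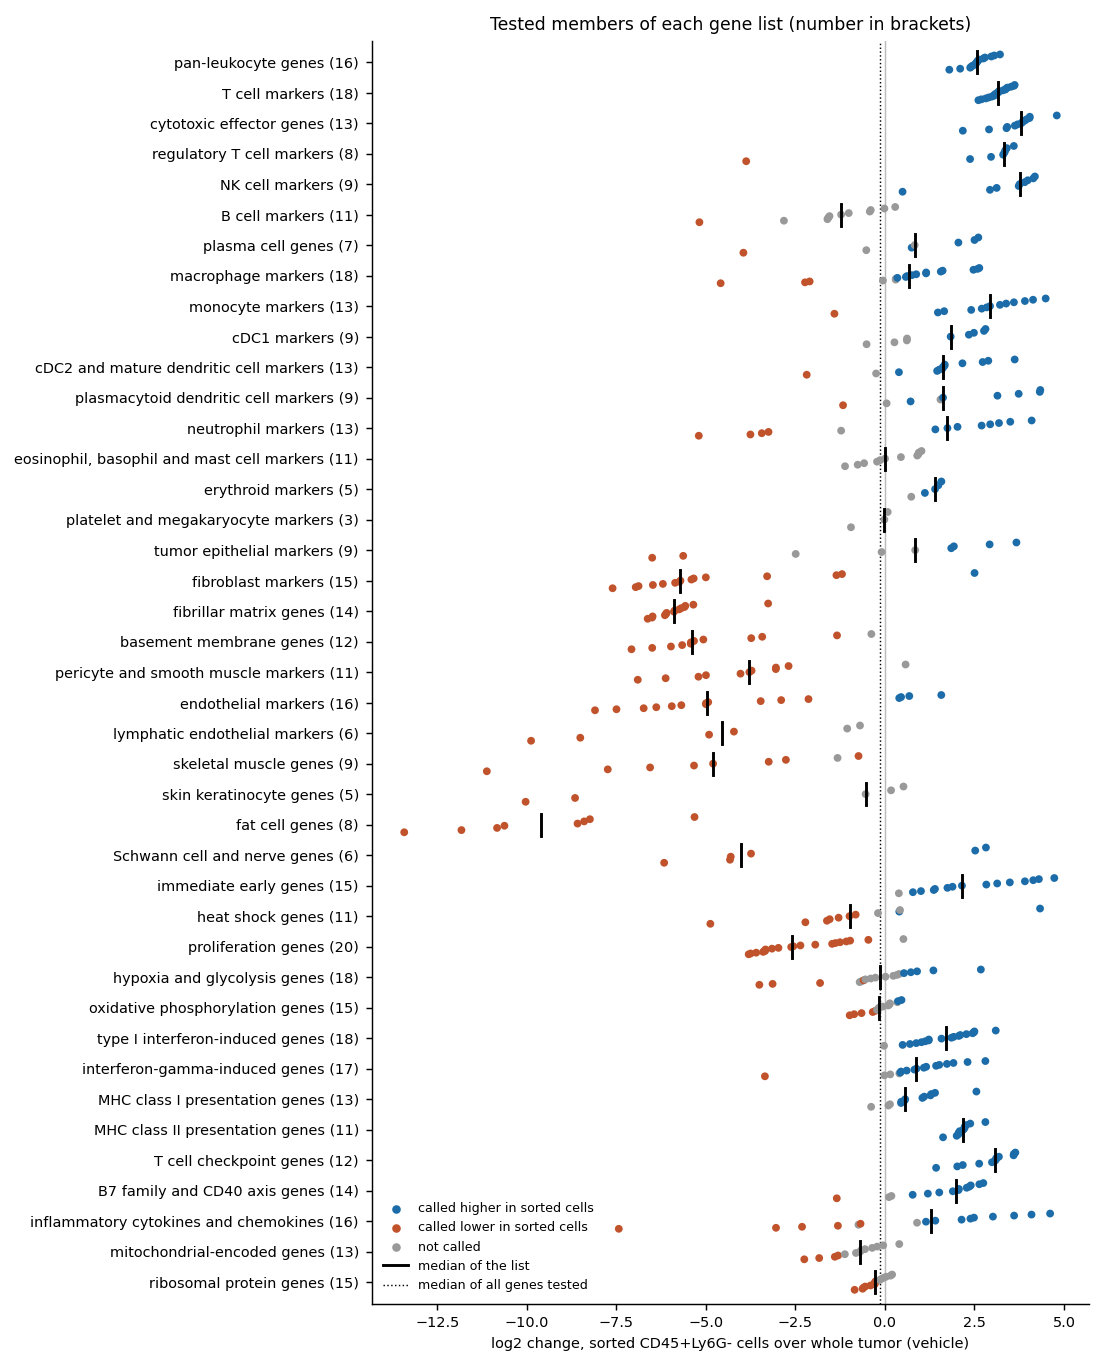
Each point is 1 tested gene of a list, placed by its log2 change of sorted cells over whole tumor, and the bar of each list is its median. Lymphoid and monocyte lists sit to the right, with cytotoxic genes at a median of 3.81, and stromal lists to the left, with fibrillar matrix at -5.88 and fat cell genes at -9.60.

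Lymphocyte genes formed the upper end of the comparison. All 18 T cell markers were higher in the sorted cells, with a median change of 3.15 against -0.12 over all genes. Cd3e, which encodes the CD3 epsilon signaling chain (ENSMUSG00000032093, chromosome 9, 44998740 to 45009627, minus strand), had 112, 84.6, 81.5 and 74.8 CPM in the sorted libraries against 14.7, 8.86, 5.18 and 10.2 CPM in the tumor libraries. Its groups did not overlap, and it changed by 3.18 ± 0.29 (adjusted p = 8.12e-06). Cd8a, the co-receptor of cytotoxic T cells, had 162, 188, 182 and 142 CPM in the sorted libraries against 21.5, 15.004, 10.3 and 21.6 CPM in the tumor libraries, a change of 3.30 ± 0.24. Cd4, the co-receptor of helper T cells that monocytes and dendritic cells can also carry, had 129, 77.4, 71.4 and 61.5 CPM in the sorted libraries against 24.1, 12.1, 9.99 and 9.41 CPM in the tumor libraries and the smallest change of the list, 2.61 ± 0.35. For both co-receptors the lowest sorted library stood above the highest tumor library. The largest change of the list was that of Zap70, the kinase that binds the activated receptor (3.62 ± 0.29).

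Cytotoxic effectors had a larger median change than the T cell markers. All 13 were higher in the sorted cells, with a median of 3.81. Gzma, a granzyme of NK cells and cytotoxic T cells (ENSMUSG00000023132, chromosome 13, 113093825 to 113100981, minus strand), had 461, 502, 498 and 444 CPM in the sorted libraries against 22.7, 17.4, 9.96 and 18.5 CPM in the tumor libraries, which is 4.80 ± 0.24 or 27.8-fold (adjusted p = 2.77e-07). Prf1, the pore-forming protein that lets granzymes into the target, had 279, 321, 293 and 177 CPM in the sorted libraries against 21.4, 19.4, 9.94 and 14.1 CPM in the tumor libraries, with sorted 10 the lowest of its group, and changed by 4.04 ± 0.28. Ifng, the cytokine interferon-gamma, had 32.8, 45.7, 49.6 and 38.04 CPM in the sorted libraries against 2.65, 3.94, 2.14 and 1.99 CPM in the tumor libraries, a change of 3.96 ± 0.25. In all 3 genes the groups were separate, and tumor 4 was the lowest or second lowest tumor library. The smallest change in the list belonged to Ccl5, a chemokine that macrophages also make (2.17 ± 0.24).

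NK cell receptors rose with them. All 9 NK cell markers were higher, with a median of 3.76. Ncr1, the NKp46 receptor that defines mouse NK cells (ENSMUSG00000062524, chromosome 7, 4337724 to 4345164, plus strand), had 103, 118, 76.9 and 117 CPM in the sorted libraries against 11.1, 7.46, 3.62 and 5.60 CPM in the tumor libraries, a change of 3.90 ± 0.33. Tumor 4 again held the least. Klrb1c, the NK1.1 antigen, changed by 4.14 ± 0.31, and Klra8, the activating receptor Ly49H, by 4.19 ± 0.36. Klra4 was the exception in size, at 0.49 ± 0.14 with overlapping groups. The Klra genes are a family of near-identical copies, so reads may have been split between them by the authors' counting and their separate values are uncertain. S1pr5, a sphingosine phosphate receptor that guides NK cells out of tissue, is not on the list but was among the 10 largest increases of all genes considered for naming (5.28 ± 0.25).

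Regulatory T cell genes were higher with 1 exception. Foxp3, the transcription factor of regulatory T cells (ENSMUSG00000039521, chromosome X, 7573644 to 7595245, plus strand), had 79.3, 50.99, 60.9 and 49.3 CPM in the sorted libraries against 9.67, 5.98, 3.23 and 3.83 CPM in the tumor libraries, with no overlap and a change of 3.40 ± 0.35 (adjusted p = 1.66e-05). Ctla4, the inhibitory receptor these cells carry, changed by 3.60 ± 0.33, and Ccr8, a chemokine receptor of tumor regulatory T cells, by 3.34 ± 0.29. Of the 8 genes 7 were higher, beside 33.9% of all genes. The eighth, Il1rl1, encodes the IL-33 receptor ST2 found on part of the regulatory T cells, mast cells and type 2 lymphoid cells. It had 11.8, 36.9, 13.2 and 18.2 CPM in the sorted libraries against 314, 382, 193 and 279 CPM in the tumor libraries, which is lower in every sorted library (-3.87 ± 0.39, adjusted p = 1.59e-05). Its ligand Il33, an alarmin of stromal and epithelial cells, was lower as well (-5.42 ± 0.88). Which cells of the tumor hold the Il1rl1 transcripts was not tested.

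T cell checkpoint genes followed the T cells, with 12 of 12 higher and a median of 3.09. Pdcd1, which encodes PD-1, had 79.3, 71.5, 80.6 and 43.1 CPM in the sorted libraries against 7.80, 7.44, 5.38 and 11.3 CPM in the tumor libraries, a change of 3.10 ± 0.27. Sorted 10 was the lowest of its group and tumor 5 the highest of the tumors, and they did not meet. Tigit, an inhibitory receptor of T and NK cells, changed by 3.59 ± 0.34, Lag3, a receptor for MHC class II, by 2.99 ± 0.23, and Havcr2, the TIM-3 receptor that macrophages and dendritic cells also carry, by 2.63 ± 0.18. The largest change was that of Cd244a, the 2B4 receptor (3.64 ± 0.13). Btla, an attenuator of B and T cells, had the smallest, 1.43 ± 0.51. It lost its call when any 1 of sorted 6, sorted 10, tumor 2, tumor 4 or tumor 5 was left out, at 1.17 to 1.40. Its level in tumor 1, 11.4 CPM, was the highest of the tumors.

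B cells were the lymphocytes that did not follow. None of 11 B cell markers was called higher, 1 was lower, and the median was -1.22. Cd79a, a chain of the B cell receptor (ENSMUSG00000003379, chromosome 7, 24897381 to 24902197, plus strand), had 3.88, 3.14, 1.65 and 2.92 CPM in the sorted libraries against 24.3, 0.681, 1.09 and 0.956 CPM in the tumor libraries. Tumor 1 was 6 times or more above every other library of either group, and the change of -1.22 ± 1.09 missed the threshold (adjusted p = 0.33). Without tumor 1, 6 of 10 B cell markers were called higher and the median turned to 1.39, with Cd79a at 1.67. The 1 called gene was Ebf1, an early B cell factor that fibroblasts and fat cell precursors also use. It had 1.05, 0, 1.01 and 0.953 CPM in the sorted libraries against 27.4, 28.9, 30.2 and 26.2 CPM in the tumor libraries, a change of -5.18 ± 0.56, and its 4 tumor libraries were alike.

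**Figure D2:**
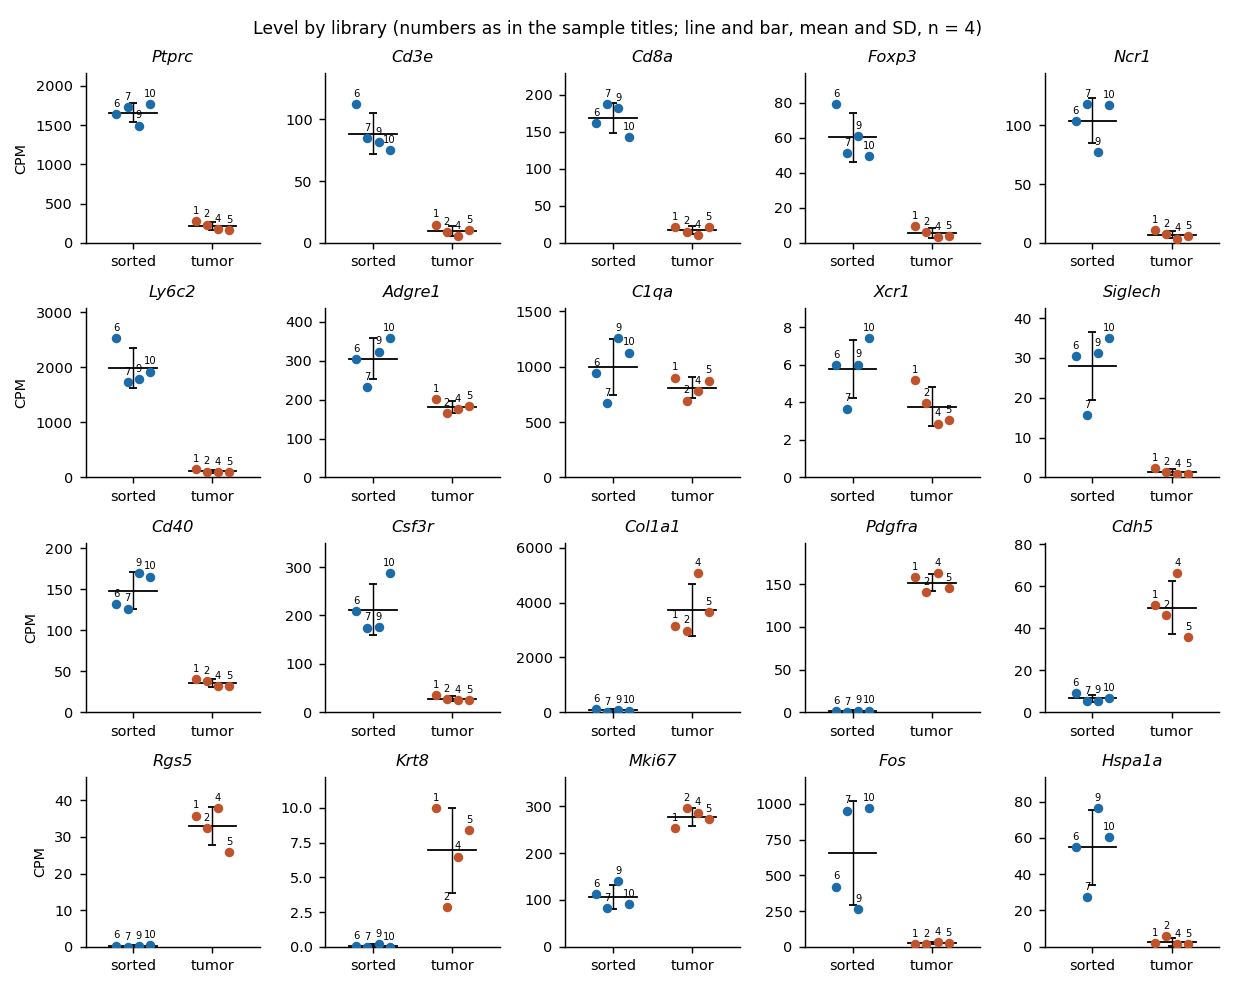
Levels of single genes in each library, in CPM on a linear axis from 0, with each point numbered as in its title, the line and bar the mean and SD of 4 libraries. Ptprc and Cd3e are higher in all 4 sorted libraries than in any tumor, Col1a1 and Mki67 are lower in all 4, and C1qa and Xcr1 overlap.

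Monocyte genes were strongly higher and macrophage genes only weakly so. Of 13 monocyte markers 12 were higher, with a median of 2.93. Ly6c2, the Ly6C antigen of inflammatory monocytes (ENSMUSG00000022584, chromosome 15, 75108158 to 75111970, minus strand), had 2524, 1726, 1784 and 1922 CPM in the sorted libraries against 148, 105, 96.2 and 104 CPM in the tumor libraries, which is 17.6-fold (4.13 ± 0.19, adjusted p = 2.07e-07). Ccr2, the chemokine receptor of monocyte recruitment, had 1229.6, 1261, 1177 and 1427 CPM in the sorted libraries against 198, 141, 106 and 106 CPM in the tumor libraries, a change of 3.21 ± 0.21. The groups of both genes were far apart. Plac8, abundant in monocytes and plasmacytoid dendritic cells, changed by 3.60 ± 0.14, and Ace with Treml4, genes of the patrolling Ly6C-low monocytes, by 2.93 ± 0.19 and 3.38 ± 0.22. Chil3, a chitinase-like protein of monocytes and alternatively activated macrophages, had 424, 254, 169 and 106 CPM in the sorted libraries against 11.2, 9.22, 9.81 and 12.2 CPM in the tumor libraries, with sorted 6 the highest and sorted 10 the lowest of its group (4.49 ± 0.41). Fn1, fibronectin, was the list's lower gene at -1.41 ± 0.21, and fibroblasts make it in quantity.

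The macrophage list had a median of 0.68, with 12 of 18 genes higher and 3 lower. Csf1r, the receptor for the macrophage growth factor CSF-1 (ENSMUSG00000024621, chromosome 18, 61100598 to 61132149, plus strand), had 1902, 1777, 1583 and 1852 CPM in the sorted libraries against 386, 304, 307 and 286 CPM in the tumor libraries, a change of 2.47 ± 0.12. Fcgr1, the high-affinity IgG receptor CD64, changed by 2.59 ± 0.15. Adgre1, the F4/80 antigen, changed by only 0.75 ± 0.13 (adjusted p = 0.000554), with 305, 233, 323 and 357 CPM in the sorted libraries against 201, 165, 175 and 184 CPM in the tumor libraries. C1qa, a complement component made by tissue macrophages (ENSMUSG00000036887, chromosome 4, 136895917 to 136898803, minus strand), had 942, 674, 1254 and 1127 CPM in the sorted libraries against 902, 694, 777 and 873 CPM in the tumor libraries. Sorted 7 was below all 4 tumors and the other 3 sorted libraries were above them, so the groups overlapped and 0.30 ± 0.18 missed the threshold (adjusted p = 0.162). The whole list summed to 15354, 12162, 15361 and 15452 CPM in the sorted libraries, lowest in sorted 7, and to 9771, 7352, 7717 and 8292 CPM in the tumors.

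Among the macrophage genes 3 were lower. Folr2, a folate receptor of resident macrophages, had 3.66, 5.11, 5.13 and 4.74 CPM in the sorted libraries against 23.7, 21.98, 12.2 and 22.1 CPM in the tumor libraries, a change of -2.10 ± 0.23. Cd163, the haemoglobin scavenger receptor, was at no more than 1.79 CPM in any sorted library and at 3.32 CPM or more in every tumor (-2.23 ± 0.43). Gpnmb, a lysosomal glycoprotein of foamy macrophages and of some tumor cells, had 9.23, 9.98, 13.2 and 5.14 CPM in the sorted libraries against 238, 272, 179.6 and 214 CPM in the tumor libraries, a change of -4.59 ± 0.28 (adjusted p = 7e-07). Mrc1, the mannose receptor CD206, had 98.8, 85.8, 58.5 and 100.01 CPM in the sorted libraries against 117, 83.4, 75.2 and 81.1 CPM in the tumor libraries and was not called (-0.06 ± 0.19, adjusted p = 0.8). The number of macrophage genes called higher was 7 when all 24 tumor and sorted libraries were fitted together, and 4 against a minimum change of 2-fold, a test by which 17.3% of all genes were higher and 21.9% lower.

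Dendritic cell genes were mostly higher, with smaller median changes than T cell genes. Of 9 markers of type 1 conventional dendritic cells 5 were higher and none lower, with a median of 1.83. Xcr1, the chemokine receptor that defines these cells (ENSMUSG00000060509, chromosome 9, 123852315 to 123862029, minus strand), had 5.97, 3.66, 6.01 and 7.40 CPM in the sorted libraries against 5.18, 3.96, 2.87 and 3.07 CPM in the tumor libraries, overlapped and was not called (0.61 ± 0.28, adjusted p = 0.0739), while Clec9a, their receptor for dead cells, changed by 2.48 ± 0.32 and Irf8, a transcription factor they need, by 2.81 ± 0.14. Of 13 genes of type 2 and mature dendritic cells 11 were higher. Itgax, the CD11c integrin, changed by 2.89 ± 0.15, Cd209a, a lectin of monocyte-derived dendritic cells, by 3.62 ± 0.48, and Ccr7, the receptor that leads mature dendritic cells to lymph nodes, by 2.16 ± 0.31 with 36.5, 62.5, 38.9 and 52.8 CPM in the sorted libraries against 15.9, 12.6, 5.94 and 8.05 CPM in the tumor libraries. Fscn1, an actin-bundling protein of mature dendritic cells and of carcinoma cells, went the other way at -2.18 ± 0.28.

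Most genes of plasmacytoid dendritic cells, a main source of type I interferon, were higher in the sorted cells. Siglech, their surface lectin (ENSMUSG00000051504, chromosome 7, 55768178 to 55778925, plus strand), had 30.4, 15.6, 31.1 and 34.9 CPM in the sorted libraries against 2.44, 1.31, 0.863 and 0.911 CPM in the tumor libraries, with sorted 7 at less than the other sorted libraries and no overlap (4.34 ± 0.40, adjusted p = 8.29e-06). Klk1 and Ccr9, also characteristic of these cells in the mouse, changed by 4.32 ± 0.40 and 3.73 ± 0.42. Of the 9 genes listed 6 were higher, beside 33.9% of all genes. The list's median was 1.62, below the 2.57 of the pan-leukocyte genes. Cox6a2, a subunit of the respiratory chain also found in muscle, was lower (-1.17 ± 0.28). Spib, a transcription factor shared with B cells, was called (1.62 ± 0.53) but lost its call without tumor 2 or tumor 5, and its level in tumor 1, 12.6 CPM, overlapped with the sorted libraries.

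Neutrophil genes went in both directions. S100a8, among the most abundant neutrophil transcripts (ENSMUSG00000056054, chromosome 3, 90668978 to 90670035, plus strand), had 0.0714, 0, 0.0774 and 0 CPM in the sorted libraries against 0.507, 0.258, 0.563 and 0.516 CPM in the tumor libraries, which is low in all 8 libraries and lower in the sorted ones (-3.44 ± 0.78, adjusted p = 0.00281). S100a9, its partner, changed by -3.76 ± 0.98. Cxcr2, the neutrophil chemokine receptor, was at no more than 0.665 CPM anywhere and was not called (adjusted p = 0.312). Of the 13 neutrophil markers tested, out of 17 listed, 8 were higher and 4 lower, beside 33.9% and 39.3% of all genes. The list's median was 1.74. Csf3r, the G-CSF receptor, had 209, 175, 176 and 287 CPM in the sorted libraries against 34.7, 27.1, 24.04 and 24.7 CPM in the tumor libraries, a change of 2.94 ± 0.19, and Trem1, an activating receptor, had 59.2, 36.8, 46.6 and 30.996 CPM in the sorted libraries against 2.11, 3.63, 2.42 and 2.02 CPM in the tumor libraries, a change of 4.10 ± 0.27. Monocytes also express both. Cd177, a neutrophil surface protein that is also found on some regulatory T cells, was among the largest increases of all at 5.11 ± 0.51.

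Mast cell genes followed single libraries. Cpa3, a mast cell protease, had 0.190, 72.1, 0.129 and 8.55 CPM in the sorted libraries against 33.8, 26.95, 44.3 and 15.2 CPM in the tumor libraries, and the list of 12 eosinophil, basophil and mast cell genes summed to 13.5, 447, 9.49 and 51.8 CPM in the sorted libraries and to 185, 146, 241 and 81.1 CPM in the tumors. Sorted 7 was above every tumor and the other 3 sorted libraries were below every tumor. None of the 11 tested genes was called, and the median was 0.00. Without sorted 7 the median was -2.25, with 5 genes lower and 1 higher. Siglecf, an eosinophil lectin, had 3.09, 1.35, 1.44 and 2.28 CPM in the sorted libraries against 1.54, 1.27, 0.488 and 0.729 CPM in the tumor libraries and was not called (adjusted p = 0.0648).

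Fibroblast and matrix genes had the opposite pattern to the leukocyte genes. All 14 fibrillar matrix genes were lower in the sorted cells, beside 39.3% of all genes, with a median of -5.88. Col1a1, the alpha-1 chain of type I collagen (ENSMUSG00000001506, chromosome 11, 94936224 to 94953042, plus strand), had 117, 3.04, 79.4 and 51.1 CPM in the sorted libraries against 3158, 2976, 5078 and 3666 CPM in the tumor libraries, a change of -5.89 ± 0.89 (adjusted p = 0.000226). Col3a1, the chain of type III collagen, had 120.05, 9.77, 81.7 and 79.4 CPM in the sorted libraries against 6614, 5698, 7555 and 6272 CPM in the tumor libraries, a change of -6.49 ± 0.69. In both genes sorted 7 held the least and sorted 6 the most, and every sorted library was more than 20-fold below the lowest tumor. Summed over the list, the sorted libraries held 2.31, 0.237, 1.59 and 1.46 percent of the mean tumor level.

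Of 15 fibroblast markers 14 were lower (median -5.71). Pdgfra, the receptor that marks tissue fibroblasts (ENSMUSG00000029231, chromosome 5, 75152292 to 75198215, plus strand), had 1.14, 0.138, 1.78 and 1.70 CPM in the sorted libraries against 159, 141, 163 and 146 CPM in the tumor libraries, a change of -6.96 ± 0.44. Lum, a proteoglycan that spaces collagen fibrils, was the lowest of the list at -7.60 ± 0.45, and Dcn, its relative decorin, changed by -6.88 ± 0.45. Postn, periostin, was at 15.5 CPM in sorted 6 and at 0.345 to 1.75 CPM in the other sorted libraries (-5.34 ± 0.98). Thy1, which T cells share with fibroblasts, was the higher member, with 419.6, 455, 322 and 246 CPM in the sorted libraries against 77.02, 65.6, 52.5 and 59.5 CPM in the tumor libraries (2.50 ± 0.20).

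Most vessel genes were lower in the sorted cells. Rgs5, a regulator of G protein signaling in pericytes (ENSMUSG00000026678, chromosome 1, 169655501 to 169695813, plus strand), had 0.309, 0, 0.258 and 0.491 CPM in the sorted libraries against 35.8, 32.4, 37.95 and 25.9 CPM in the tumor libraries, a change of -6.90 ± 0.46, and 10 of 11 pericyte and smooth muscle genes were lower. Cdh5, the cadherin of endothelial junctions (ENSMUSG00000031871, chromosome 8, 104101625 to 104144511, plus strand), had 9.02, 5.39, 5.52 and 6.76 CPM in the sorted libraries against 51.04, 46.2, 66.3 and 35.9 CPM in the tumor libraries, a change of -2.90 ± 0.23. Robo4 and Plvap, both restricted to endothelium, changed by -7.50 ± 0.48 and -6.74 ± 0.70. Of 16 endothelial markers 12 were lower and 4 higher. The higher 4 were Flt1, a VEGF receptor also carried by monocytes (1.57 ± 0.11), Pecam1, the CD31 molecule of endothelium and many leukocytes (0.68 ± 0.18), Kdr, the main VEGF receptor (0.45 ± 0.15), and Eng, the endoglin of endothelium and macrophages (0.40 ± 0.16). Without sorted 6 or without sorted 9 the calls of Kdr and Eng were lost and 2 of the 4 were left. Eng also lost its call without sorted 10, tumor 2 or tumor 5, and with library totals alone as the scaling 1 of the 4 was called. Basement membrane genes were lower in 11 of 12, led by Lama4, a laminin chain of vessels (-7.08 ± 0.51).

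Most fat, muscle and lymphatic genes were lower too, 8 of 8, 8 of 9 and 4 of 6 of those tested, and their levels in the tumors were highest in 1 or 2 libraries. All 8 fat cell genes were called lower, but none with limma's voom and sample weights. Cfd, the adipokine adipsin (ENSMUSG00000061780, chromosome 10, 79890853 to 79892655, plus strand), had 160.2, 13.7, 13.99 and 231 CPM in the tumors and a single count over the 4 sorted libraries, a ratio of tumor to sorted of 16400 (95% interval 2930 to 646000), which covers counting error only. Lep and Retn, the adipokines leptin and resistin, had no count in any sorted library and were at least 215-fold and 495-fold lower, against a floor of 3 counts over the group. With such genes set at their bound the list's median is -8.49 in place of -9.60. Tumors 1 and 5 held more than 10 times the Cfd of tumors 2 and 4. Acta1, skeletal muscle actin, had 4.25, 13.2, 45.4 and 6.65 CPM in the tumors, highest in tumor 4, and no more than 0.490 CPM in a sorted library (-6.56 ± 1.11). Ccl21a, a chemokine of lymphatic vessels, had 8.81, 4.49, 48.2 and 2.40 CPM in the tumors, again highest in tumor 4 (-8.51 ± 1.43). Of 5 skin keratinocyte genes tested 2 were lower, beside 39.3% of all genes, and 3 not called. Their median was -0.54, and their summed levels overlapped between the groups. Krt14, a keratin of the basal skin layer, was 1 of the 2, with no count in the sorted cells and at least 127-fold lower.

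**Figure D3:**
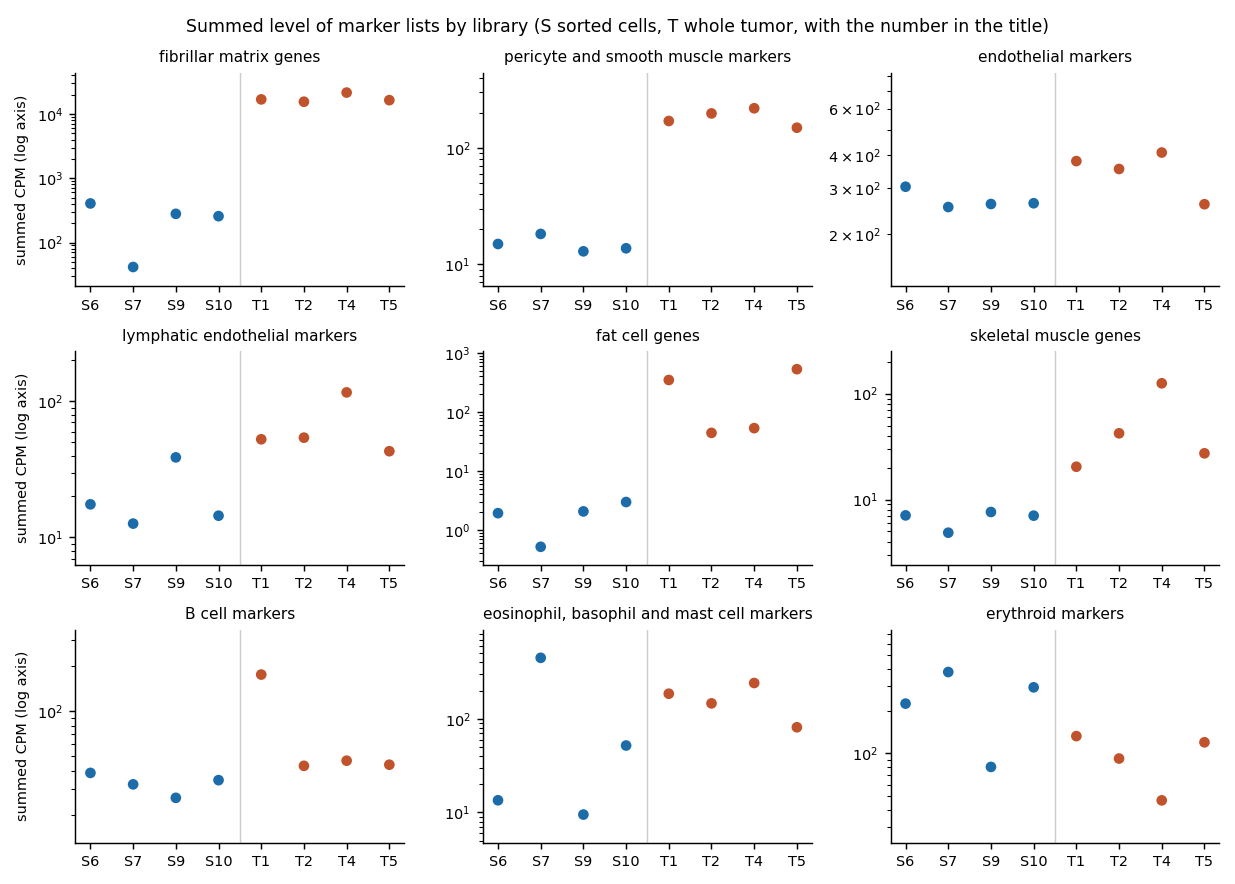
Summed level of marker lists in each library, in CPM on a log axis, for sorted cells (S) and whole tumor (T). Tumor 1 stands out for B cell markers, sorted 7 for mast cell markers and tumor 4 for lymphatic and muscle genes, while tumors 1 and 5 share the high fat cell sums.

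Epithelial keratins were scarce in both groups, while the whole epithelial list summed higher in the sorted cells, to 131, 125, 109.7 and 94.5 CPM against 52.9, 31.8, 25.6 and 45.7 CPM in the tumors. Cdh1, at 30.4 to 59.8 CPM, made up a large part of the sorted sums, and which cells carry it was not tested. Krt8, a simple-epithelium keratin (ENSMUSG00000049382, chromosome 15, 101996698 to 102004482, minus strand), had 0.0714, 0, 0.206 and 0 CPM in the sorted libraries against 10.01, 2.87, 6.49 and 8.42 CPM in the tumor libraries, a change of -6.50 ± 0.81 (adjusted p = 6.11e-05), and Krt19 changed by -5.63 ± 1.29. Krt18, the partner of Krt8, had 0.143, 0, 0.464 and 1.24 CPM in the sorted libraries against 5.07, 0.276, 0.469 and 4.64 CPM in the tumor libraries, and its change of -2.49 ± 1.19 missed the threshold (adjusted p = 0.0848). Tumors 1 and 5, the pair with high fat cell genes, were also the high pair for Krt8, Krt18 and Krt19. Epcam, the pan-epithelial adhesion molecule, had 2.31, 2.42, 3.56 and 1.94 CPM in the sorted libraries against 2.33, 0.460, 0.788 and 2.09 CPM in the tumor libraries, overlapped and was not called (0.84 ± 0.51). Cdh1, which encodes E-cadherin, was higher in the sorted cells with 59.8, 53.999, 48.3 and 30.4 CPM in the sorted libraries against 7.64, 5.06, 5.57 and 7.09 CPM in the tumor libraries (2.92 ± 0.23), as were Ceacam1, an adhesion receptor of epithelium and activated leukocytes (1.85 ± 0.22), and Lgals4, a galectin of gut epithelium (3.67 ± 0.34). Of the 16 epithelial genes listed 9 were tested, 4 higher and 2 lower, and with no filter on low counts 16 were tested, 4 higher and 6 lower, and the median moved from 0.84 to -2.48.

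Proliferation genes were lower in the sorted cells. Of 20 proliferation genes 19 were lower, with a median of -2.59. Mki67, the Ki-67 antigen of cycling cells (ENSMUSG00000031004, chromosome 7, 135689784 to 135716361, minus strand), had 112, 81.7, 139.96 and 91.9 CPM in the sorted libraries against 253, 297, 287 and 272 CPM in the tumor libraries, a change of -1.38 ± 0.16 (adjusted p = 3.52e-05). Cdk1, the kinase that drives mitosis, had 8.63, 4.90, 13.9 and 8.78 CPM in the sorted libraries against 115, 119, 128 and 146 CPM in the tumor libraries, a change of -3.80 ± 0.27, and Ccnb1, its cyclin, changed by -3.75 ± 0.26. The 4 tumors were close to each other, and among the sorted libraries 9 was the highest and 7 the lowest for all 3. The replication genes Pcna, the polymerase clamp, and Mcm2, a helicase subunit, changed less, by -0.97 ± 0.18 and -1.08 ± 0.19. Ccnb2, a second mitotic cyclin, was not called and overlapped (0.52 ± 0.23, adjusted p = 0.0714).

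Of 18 hypoxia and glycolysis genes tested 5 were higher, 4 lower and 9 not called. Over all genes 33.9% were higher and 39.3% lower. Car9, a carbonic anhydrase induced by low oxygen (ENSMUSG00000028463, chromosome 4, 43506966 to 43513729, plus strand), had 4.28, 3.18, 4.54 and 6.21 CPM in the sorted libraries against 47.6, 78.4, 23.5 and 11.04 CPM in the tumor libraries, a change of -3.14 ± 0.55, with tumor 2 the highest and tumor 5 the lowest of the tumors. Ndrg1, a stress-responsive gene, changed by -1.81 ± 0.33, Adm, the vasodilator adrenomedullin, by -3.51 ± 0.45, and Pgk1, a glycolytic kinase, by -0.59 ± 0.23. Pgk1 lost its call without any 1 of sorted 7, sorted 10, tumor 1, tumor 2 or tumor 5. The glycolytic enzymes Pfkp, a phosphofructokinase, and Hk2, a hexokinase, were higher in the sorted cells, by 2.68 ± 0.18 and 1.35 ± 0.18. Vegfa, the angiogenic growth factor, had 84.5, 83.8, 60.9 and 111 CPM in the sorted libraries against 112, 173, 90.3 and 73.1 CPM in the tumor libraries and was not called (-0.40 ± 0.27). Counting both identifiers that carry the symbol Aldoa, 18 genes were tested, 5 higher and 4 lower. The number called higher fell to 3 without any 1 of sorted 6, sorted 9, tumor 4 or tumor 5, and the list's median turned from -0.13 to 0.03 without tumor 2.

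Antigen presentation was higher, far more for class II than for class I. All 11 class II genes were higher, with a median of 2.19. H2-Ab1, the beta chain of I-A (ENSMUSG00000073421, chromosome 17, 34257689 to 34269419, plus strand), had 3942, 3527, 3608 and 4841 CPM in the sorted libraries against 1215, 839, 602 and 654 CPM in the tumor libraries, a change of 2.27 ± 0.23 (adjusted p = 1.51e-05), with sorted 10 and tumor 1 the highest of their groups. Ciita, the master regulator of class II, had the largest change of the list (2.80 ± 0.31), and Cd74, the invariant chain, changed by 2.19 ± 0.23. Of 13 class I genes 10 were higher with a median of 0.57. H2-K1, a class I heavy chain, had 4858, 4225, 4557 and 4574 CPM in the sorted libraries against 2498, 2398, 1734 and 2192 CPM in the tumor libraries (1.05 ± 0.13), and B2m, the shared light chain, changed by 0.46 ± 0.10. Nlrc5, the class I counterpart of Ciita, had the largest change at 2.55 ± 0.17. Class I heavy chain genes are near-identical in parts, so counts may be shared between them.

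The antibodies of the wider study target CD40. Most genes listed for the B7 family and the CD40 axis were higher in the sorted cells. Mouse Cd40 itself (ENSMUSG00000017652, chromosome 2, 165055627 to 165072948, plus strand) had 132, 126, 169.7 and 165 CPM in the sorted libraries against 40.4, 37.98, 31.4 and 31.9 CPM in the tumor libraries, a change of 2.06 ± 0.13 (adjusted p = 1e-06) with separate groups. The human CD40 transgene was not analysed here. Cd40lg, its ligand on activated T cells, was scarce, with 2.19, 1.62, 0.593 and 1.85 CPM in the sorted libraries against 0.586, 0.368, 0.169 and 0.152 CPM in the tumor libraries (2.28 ± 0.58). Cd80 and Cd86, the costimulatory ligands of CD28, changed by 2.64 ± 0.20 and 2.40 ± 0.16. Cd274, which encodes PD-L1 (ENSMUSG00000016496, chromosome 19, 29367455 to 29388095, plus strand), had 151, 143, 161 and 212 CPM in the sorted libraries against 63.2, 81.004, 46.8 and 42.2 CPM in the tumor libraries, a change of 1.52 ± 0.21. Tumors 1 and 2 were the higher tumors but stayed below all sorted libraries. Of the 14 tested B7 and CD40 axis genes 11 were higher, and Cd276, the B7-H3 ligand common on tumor and stromal cells, was lower (-1.35 ± 0.14).

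Interferon-induced genes were higher as a group, by less than the pan-leukocyte genes. Of 18 type I interferon-induced genes 17 were higher, with a median of 1.72. Mx1, an antiviral GTPase (ENSMUSG00000000386, chromosome 16, 97447035 to 97462907, minus strand), had 513, 353, 597 and 625 CPM in the sorted libraries against 63.6, 60.9, 68.5 and 51.8 CPM in the tumor libraries and the largest change (3.09 ± 0.19), and Irf7, the transcription factor that amplifies the response, had 2055, 1420.4, 1897 and 1718 CPM in the sorted libraries against 419.7, 318, 383 and 344 CPM in the tumor libraries (2.27 ± 0.14). Sorted 7 was the lowest sorted library for both and was still above the tumors. Isg15, a ubiquitin-like protein, changed by 1.02 ± 0.18, Oas1a, a sensor of double-stranded RNA, by 1.86 ± 0.15, and Rsad2, the antiviral enzyme viperin, by 1.12 ± 0.12. Ifit1, an RNA cap sensor, changed by only 0.49 ± 0.11 with 273, 234, 289 and 216 CPM in the sorted libraries against 193, 163, 188 and 175 CPM in the tumor libraries. Of 17 interferon-gamma-induced genes 13 were higher with a median of 0.88, among them Gbp5, a guanylate-binding protein (2.31 ± 0.16), and Cxcl9, a chemokine for T cells (0.82 ± 0.16). The number of type I genes called higher was 10 when all 24 tumor and sorted libraries were fitted together, and 11 against a minimum change of 2-fold. Ido1, the tryptophan-degrading enzyme, was lower (-3.35 ± 0.73).

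The interferon-stimulated response element is the DNA stretch through which type I interferon acts on its target genes. The RefSeq promoter table (GRCm38.p6) matched 13 of the 18 type I genes, and 7 of them held the letters GAAANNGAAA on either strand in the 300 bases around a start, beside 3.99% of all 27025 genes in the table, a gene counting when any of its promoters of that length matched. The 4 below are the 150 bases before the start, with matches in capitals (a match on the other strand reads as its reverse complement, and neighbouring matches overlap). They were picked among the genes with a match to show changes from 0.49 (Ifit1) to 1.86 (Oas1a), and a match is a description of the letters only.
Isg15 (chr4:156200819-156200968, minus strand): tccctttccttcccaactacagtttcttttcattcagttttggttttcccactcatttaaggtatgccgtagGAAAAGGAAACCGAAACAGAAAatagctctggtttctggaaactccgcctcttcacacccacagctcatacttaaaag
Ifit1 (chr19:34640739-34640888, plus strand): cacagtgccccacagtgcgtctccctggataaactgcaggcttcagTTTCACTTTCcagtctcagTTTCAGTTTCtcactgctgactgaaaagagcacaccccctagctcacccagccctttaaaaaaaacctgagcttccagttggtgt
Oas1a (chr5:120907526-120907675, minus strand): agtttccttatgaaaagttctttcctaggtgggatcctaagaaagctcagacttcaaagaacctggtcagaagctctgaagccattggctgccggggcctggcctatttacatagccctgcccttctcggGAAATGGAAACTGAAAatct
Rsad2 (chr12:26456453-26456602, minus strand): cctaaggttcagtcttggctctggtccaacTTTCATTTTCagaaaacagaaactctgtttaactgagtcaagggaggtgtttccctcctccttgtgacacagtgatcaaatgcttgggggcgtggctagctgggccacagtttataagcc
Isg15 and Oas1a carry runs of overlapping matches, Ifit1 a pair on the opposite strand and Rsad2 a single one. The number of matches does not follow the size of the change in these 4 genes.

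Immediate early genes, which cells switch on within minutes of a stimulus, were higher in the sorted cells, and Fos was among the 10 largest increases considered for naming. Of 15 listed genes 14 were higher, with a median below that of the pan-leukocyte genes, 2.15. Fos, a subunit of the AP-1 transcription factor (ENSMUSG00000021250, chromosome 12, 85473890 to 85477273, plus strand), had 421, 952, 264 and 972 CPM in the sorted libraries against 18.7, 21.01, 30.6 and 28.1 CPM in the tumor libraries, a change of 4.73 ± 0.45 (adjusted p = 1.05e-05). Sorted 7 and 10 held more than 2 times the level of sorted 6 and 9, and all 4 were above the tumors. Zfp36, an RNA-binding protein that shortens cytokine transcripts, had 855, 1266, 680.3 and 1402 CPM in the sorted libraries against 60.7, 58.1, 60.4 and 58.96 CPM in the tumor libraries, a change of 4.14 ± 0.23, with the same order of sorted libraries. Nr4a1, an orphan nuclear receptor, changed by 3.91 ± 0.30, and Egr1, a zinc-finger factor, by 1.74 ± 0.26. Ier3 was not called (0.39 ± 0.33). The sorted cells went through a sort that the whole tumors did not, and in these genes handling and cell type cannot be told apart.

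The promoters of these genes were searched for the CArG box, the core of the serum response element, and for TGACGTCA, the cAMP response element, on both strands. The table matched 12 of the 15 genes, of which 2 held a CArG box and 2 a cAMP response element, beside 1.81% and 2.03% of all 27025 genes in the table. Zfp36 is printed because it had the larger change of the 2 genes with a CArG box, again the 150 bases before the start with the CArG box in capitals.
Zfp36 (chr7:28379229-28379378, minus strand): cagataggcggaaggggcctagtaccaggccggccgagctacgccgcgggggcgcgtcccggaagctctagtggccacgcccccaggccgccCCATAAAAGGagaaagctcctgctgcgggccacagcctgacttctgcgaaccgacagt
No match was found for Fos in its window, which says nothing about the factor.

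Heat shock genes did not move with the immediate early genes. Of 11 genes 7 were lower, 2 higher, and the median was -0.99. Hspd1, the mitochondrial chaperonin, changed by -2.22 ± 0.17, Hsp90aa1, the inducible HSP90, by -1.62 ± 0.19, and Hspb1, a small heat shock protein, was at no more than 0.276 CPM in a sorted library (-4.88 ± 0.90). Hspa1a, the inducible HSP70 (ENSMUSG00000091971, chromosome 17, 34969190 to 34972156, minus strand), was higher with 54.8, 27.2, 76.6 and 60.4 CPM in the sorted libraries against 2.14, 5.85, 1.48 and 1.46 CPM in the tumor libraries (4.33 ± 0.52), while Hspa1b, its near-identical neighbour, had 51.9, 25.2, 101 and 55.03 CPM in the sorted libraries against 36.1, 51.8, 41.3 and 45.3 CPM in the tumor libraries and was not called (0.42 ± 0.34). Reads of the pair can be assigned to either copy, so their separate values are uncertain. The share of mitochondrial transcripts did not separate the groups, at 0.653 to 2.42% of counts in the sorted libraries and 1.06 to 2.16% in the tumors, and was highest in sorted 10. Haemoglobin genes took 0.00724 to 0.0361% in the sorted libraries and 0.00498 to 0.0143% in the tumors.

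Inflammatory cytokines divided between the sides. Il1b, the myeloid cytokine interleukin-1 beta (ENSMUSG00000027398, chromosome 2, 129364570 to 129371139, minus strand), had 241, 363, 165 and 385 CPM in the sorted libraries against 14.6, 21.04, 28.7 and 30.4 CPM in the tumor libraries, a change of 3.61 ± 0.33, with sorted 7 and 10 the highest. Osm, oncostatin M, an IL-6 family cytokine of myeloid cells, had 72.2, 104, 30.1 and 117 CPM in the sorted libraries against 3.28, 3.28, 3.26 and 3.38 CPM in the tumor libraries, with the 4 tumors nearly equal and sorted 9 the lowest of its group (4.61 ± 0.39). For Il1b and Osm the order of the sorted libraries was that of Fos. Handling and cell type cannot be told apart in these cytokines either. Cxcl2, a chemokine for CXCR2, changed by 4.09 ± 0.50, and Tnf, tumor necrosis factor, by 2.39 ± 0.31. Cxcl1, the related chemokine, went the other way, with 0.785, 0.242, 0.129 and 0.636 CPM in the sorted libraries against 4.06, 3.90, 3.88 and 3.11 CPM in the tumor libraries (-3.04 ± 0.51, adjusted p = 0.000451). Cxcl5, another CXCR2 ligand, had no count in the sorted cells and was at least 21.8-fold lower. Lif, a relative of Osm, was lower as well (-2.31 ± 0.18), and Ptgs2, the inducible cyclooxygenase, was lower with overlapping groups (-1.31 ± 0.41).

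**Figure D4:**
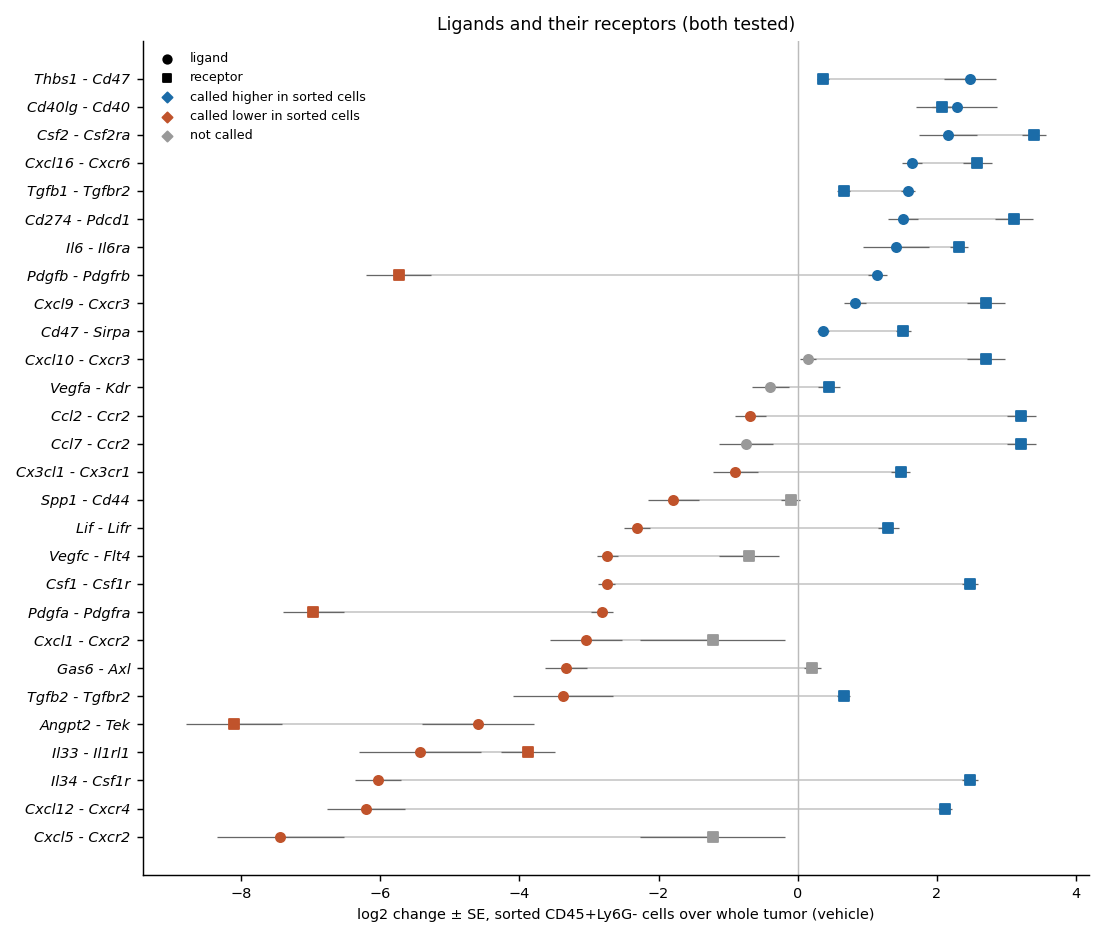
Log2 change of sorted cells over whole tumor with its SE for 28 of the ligand and receptor pairs in which both genes were tested, 1 pair a line, circles for ligands and squares for receptors, coloured by their call. Lines that run from a lower ligand to a higher receptor include Csf1 with Csf1r at -2.75 and 2.47.

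Ligands and their receptors were more often on the same side than on opposite sides. Of 30 pairs chosen from textbook biology, 7 had the ligand lower and the receptor higher in the sorted cells, 10 had both higher, 3 had both lower and 1 had the ligand higher and the receptor lower. In the other 9 a gene of the pair was not called or not tested. These counts stand beside 33.9% of all genes called higher and 39.3% called lower, and nothing particular to the pairs was tested. Csf1, the macrophage growth factor (ENSMUSG00000014599, chromosome 3, 107741048 to 107760469, minus strand), had 42.5, 42.7, 32.7 and 44.9 CPM in the sorted libraries against 267, 247, 305 and 274 CPM in the tumor libraries, a change of -2.75 ± 0.12, while its receptor Csf1r changed by 2.47. Il34, the second ligand of that receptor, had 0.452, 0.173, 0.696 and 0.260 CPM in the sorted libraries against 22.9, 27.2, 29.01 and 27.7 CPM in the tumor libraries, a change of -6.03 ± 0.33. For both ligands the sorted libraries were all below the tumors. Cxcl12, a stromal chemokine that retains leukocytes, had 0.381, 0, 0.387 and 1.10 CPM in the sorted libraries against 38.4, 39.03, 30.8 and 31.95 CPM in the tumor libraries (-6.20 ± 0.56), and its receptor Cxcr4 had 133, 144, 116 and 136 CPM in the sorted libraries against 32.7, 26.2, 31.8 and 31.2 CPM in the tumor libraries (2.12 ± 0.10). Ccl2, the monocyte chemokine, had the smallest ligand change of the 7, -0.68 ± 0.22 against 3.21 for Ccr2, with 207, 108, 261 and 203 CPM in the sorted libraries against 321, 299, 304 and 325 CPM in the tumor libraries.

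The other pairs of that kind were Cx3cl1, the fractalkine ligand (-0.90 ± 0.32), with its receptor Cx3cr1 (1.48 ± 0.13), Lif with its receptor chain Lifr (-2.31 and 1.30 ± 0.15), and Tgfb2 with Tgfbr2 (-3.37 ± 0.72 and 0.66 ± 0.10). The call of Cx3cl1 was lost without any 1 of sorted 10, tumor 2, tumor 4 or tumor 5, at -0.80 to -0.93. Tgfb1, the leukocyte isoform of the same growth factor, was higher with 572, 596, 453 and 497 CPM in the sorted libraries against 181, 173, 173 and 177 CPM in the tumor libraries (1.59 ± 0.10). The single pair in the reverse arrangement was Pdgfb, a growth factor for pericytes, with 51.3, 49.4, 51.03 and 53.4 CPM in the sorted libraries against 27.3, 26.9, 20.8 and 18.05 CPM in the tumor libraries (1.14 ± 0.14), and its receptor Pdgfrb, with 2.14, 0.276, 1.44 and 1.76 CPM in the sorted libraries against 67.7, 61.2, 117 and 61.4 CPM in the tumor libraries (-5.73 ± 0.47). Pairs with both genes higher included Cxcl16, a transmembrane chemokine, with Cxcr6 (1.64 ± 0.14 and 2.58 ± 0.21), and Cd274 with Pdcd1 (1.52 and 3.10). Pdgfa with Pdgfra, Angpt2 with Tek and Il33 with Il1rl1 were lower in both genes. Angpt2, an endothelial angiopoietin, changed by -4.59 ± 0.81, and its receptor Tek had 2 counts over the sorted libraries, a ratio of tumor to sorted of 331 (95% interval 91.4 to 2740).

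Another scaling set each library to its summed counts over the 16 pan-leukocyte genes, so that a gene made only by leukocytes, in an unchanged mix of cells, would stay at 0. By this scaling the pan-leukocyte list is near 0 by construction, the median of all genes was -2.73 and 15553 genes (89.7%) were called, 496 (2.86%) higher and 15057 (86.9%) lower. Of 18 T cell markers 11 were higher and none lower, with a median of 0.59, and of 13 cytotoxic genes 10 were higher and Ccl5 lower, with a median of 1.24. The call of Ccl5 was lost without any 1 of sorted 6, sorted 9, tumor 1 or tumor 2. Of 9 NK cell markers 6 were higher and Klra4 lower, with a median of 1.19. Per 1000 pan-leukocyte counts Gzma had 32.6, 36.4, 40.1 and 36.3 in the sorted libraries and 8.33, 8.44, 5.17 and 9.03 in the tumors (2.23 ± 0.18, adjusted p = 9.45e-08), without overlap. The T cell count depended on the libraries and the scaling gene: it was 7 without sorted 6, 15 without tumor 1, and 3 when Ptprc alone was used to scale.

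Macrophage genes were mostly lower on the same scale. The list's median was -1.90, with 15 of 18 lower, a share close to that of all genes. Per 1000 pan-leukocyte counts C1qa had 66.7, 48.9, 101 and 92.1 in the sorted libraries and 332, 337, 403 and 427 in the tumors, -2.28 ± 0.22 (adjusted p = 5.54e-07), and every sorted library was below every tumor. Adgre1 changed by -1.84 ± 0.18 and Csf1r by -0.12 ± 0.13. Fcgr1, of the same list, stayed at -0.01 ± 0.16 and was not called. Monocyte genes stood at a median of 0.33, or -0.06 with Ptprc alone, with 6 of 13 higher and 3 lower. Ly6c2 was at 1.55 ± 0.15 and Chil3 at 1.85 ± 0.33, while Cx3cr1 was at -1.12 ± 0.18. The plasmacytoid dendritic cell list had a median of -0.83, with 3 of 9 higher and 3 lower. Siglech, of that list, was among the 8 largest increases of the leukocyte and stress lists (1.83 ± 0.34). Within those same lists Mmp9, a gelatinase of neutrophils and macrophages, was the largest decrease (-7.81 ± 0.31). It had 10.2, 5.35, 8.23 and 10.3 CPM in the sorted libraries against 313, 254, 355 and 335 CPM in the tumor libraries. Genes outside those lists fell further, such as Pdgfra (-9.55 ± 0.61). Sdc1, the plasma cell and epithelial proteoglycan syndecan-1, was at -6.58 ± 0.25. The B7 and CD40 axis list had a median of -0.59, with 0 of 14 higher and 8 lower, beside 2.86% and 86.9% of all genes. Mouse Cd40 was called lower on this scale (-0.52 ± 0.17), as was Cd274 (-1.07 ± 0.23). Both fell by less than the median of all genes, -2.73. Immediate early genes went both ways on this scale, 4 higher and 7 lower of 15 with a median of -0.47. Fos (2.10 ± 0.46), Zfp36 (1.54 ± 0.23) and Nr4a1 (1.30 ± 0.31) were among the higher, and Egr1 (-0.85 ± 0.26) among the lower.

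**Figure D5:**
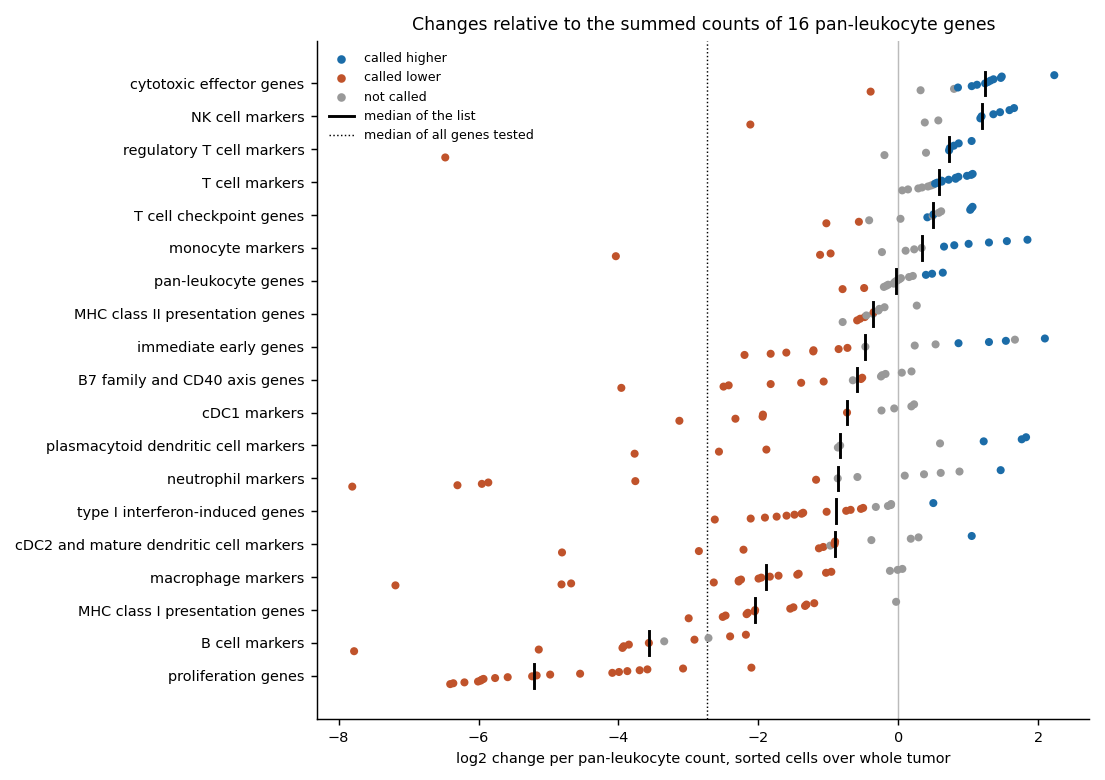
Log2 change of the members (points) and median (bar) of 19 lists after each library was scaled to its summed counts over 16 pan-leukocyte genes, coloured by call, with the median of all genes as a dotted line. Cytotoxic genes have a median of 1.24, macrophage markers -1.90 and all genes -2.73.

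The comparison was set beside the same one in mice treated with CD40 mAb, an antibody against CD40 (3 sorted and 5 tumor libraries), or with ATOR-4066, which binds both CD40 and CEACAM5 (3 and 5), none of which share a library with the vehicle groups. Among 20403 genes tested the sorted-against-tumor change differed from vehicle for 23 genes (0.113%) with CD40 mAb and for 1113 (5.46%) with ATOR-4066, by an interaction test in edgeR. Of the 12695 genes called in vehicle, 68.3% were called in the same direction with CD40 mAb and 58.8% with ATOR-4066, which is 82.5% and 77.1% of the genes called there. Both interaction counts depended on single libraries. The first ran from 11 without vehicle tumor 1 to 87 without CD40 mAb sorted 7, and the second from 298 without ATOR-4066 sorted 9 to 1865 without ATOR-4066 sorted 10. The second was 1778 without ATOR-4066 tumor 3.

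Cxcl1, the neutrophil chemokine, differed from vehicle in both treatments and kept both calls when any 1 of 16 libraries was left out. Its change was -3.04 in vehicle, 2.23 ± 0.41 with CD40 mAb (difference 5.30 ± 0.61, adjusted p = 0.000423) and 0.26 ± 0.42 with ATOR-4066 (difference 3.34 ± 0.60, adjusted p = 0.00678). Cd40 differed with ATOR-4066, where its change was 0.03 ± 0.39 against 2.06 in vehicle (difference -2.01 ± 0.56, adjusted p = 0.0391), and its difference with CD40 mAb missed the threshold (adjusted p = 0.804). The Cd40 call held in 6 of 16 settings that leave out 1 library, at -2.23 to -1.58. The proliferation genes Mki67 and Cdk1 differed the other way with ATOR-4066, so that Mki67 was at 1.25 ± 0.44 there. Their differences were 2.66 ± 0.62 (adjusted p = 0.0176) and 2.62 ± 0.62 (adjusted p = 0.0187). Both lost their call without ATOR-4066 sorted 9, at adjusted p = 0.0634 and 0.0637. Mmp9 also differed, by 3.07 ± 0.90 (adjusted p = 0.0483), and kept its call in 3 of the 16 settings. The differences in Sdc1 (2.73 ± 0.42) and Lifr (-1.85 ± 0.39) passed the same test and held in all 16. Those in Egr1 (1.89 ± 0.46), Ceacam1 (-2.63 ± 0.65), Dcn (-2.31 ± 0.60) and Trem1 (-2.41 ± 0.67) also passed it and held in 15, 13, 10 and 6 of the 16, and each was lost without ATOR-4066 sorted 9, while for Ptprc the difference was -0.82 ± 0.64 (adjusted p = 0.46) and for Gzma -1.49 ± 0.64 (adjusted p = 0.154).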

How the data were processed

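Poly(A) RNA was sequenced from stranded libraries, per the labels' protocols. The authors deposited expected counts, that is estimated counts merged from salmon per the file's name, for 57010 gene identifiers in 52 libraries. STAR 5.1 and GRCm38 are named in the submitters' processing notes, and the annotation release is not given in the sources used here. Coordinates are those of GENCODE vM21 (GRCm38), where 52029 identifiers were found.

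Counts, of which 11% of cells were fractional, were rounded. Genes passed filterByExpr (minimum count 10, total 15), were scaled by TMM and tested with edgeR 4.0.16 (robust quasi-likelihood F test, R 4.3.3) on the 8 libraries, with Benjamini-Hochberg adjustment over all genes and a call at an adjusted p under 0.05. The SE is the change divided by the square root of F. The second fit replaced library sizes by summed pan-leukocyte counts. Interaction fits used all 24 tumor and sorted libraries. Alternatives were DESeq2 1.42.0, voom with sample weights (limma 3.58.1), glmTreat at 2-fold, other scalings and filters, and each library left out, also for the library measures, which was chosen after seeing the data. The edgeR script was tested on simulated data. No pair of libraries in a group agreed within sampling noise, so none was merged. Intervals and floors (3 counts) cover counting error only.

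The members and the 42 gene lists were chosen with earlier results of these data known. Named genes are a fixed set of anchors, the 10 largest changes each way without overlap and above an average log2-CPM of 3, the 2 largest changes of each list with every called member against its direction, the 8 largest each way on the pan-leukocyte scale, and the genes of 30 pairs. Other list members are named by role and were chosen after their values were seen. Of the symbols, 147 stand on more than 1 identifier. A few list members are not reported here by name.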

Additional observations from a re-analysis of the deposited data

Results flagged for a closer look

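Of 456 sets of 4 libraries (a gene or summed list in the sorted or in the tumor group), 29 held a library whose gap to the nearest of the others, divided by the whole range, was above Dixon's critical value. Chance marks about 1 set in 20.

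Tumor 1 was high in B cell genes. Its B cell markers summed to 176 CPM against 43 to 46.6 CPM in the other tumors. Cd79a was at 24.3 CPM, Jchain at 20.9 CPM, Btla at 11.4 CPM and Spib at 12.6 CPM, each the highest tumor level. The summed pan-leukocyte genes were also high there, at 2720 CPM against 1930 to 2060 CPM, with Ly6c2 at 148 CPM and Treml4 at 4.53 CPM. Tumor 4 was high in lymphatic markers (116 CPM against 43 to 54.1 CPM), in Ccl21a (48.2 CPM) and in Pdgfrb, the pericyte receptor (117 CPM), and low in Folr2 (12.2 CPM) and B2m (2280 CPM). Tumor 2 was high in Hspa1a (5.85 CPM) and Cxcl2 (1.1 CPM) and low in Oas1a (98.4 CPM). Osm in tumor 5, at 3.38 CPM, was beside 3.26 to 3.28 CPM.

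Sorted 7 was high in eosinophil, basophil and mast cell markers, at 447 CPM against 9.49 to 51.8 CPM, with the mast cell protease Cpa3 at 72.1 CPM. It was low in macrophage markers (12200 CPM against 15400 to 15500 CPM), in Cx3cr1 (307 CPM), in Ebf1 (0 CPM) and in the number of genes with at least 10 counts (15200 against 15900 to 16000). Sorted 6 was high in Postn, at 15.5 CPM against 0.345 to 1.75 CPM, and in 2 genes near 0, S100a9 (0.119 CPM) and Cfd (0.0238 CPM). Sorted 10 was high in summed inflammatory cytokines and chemokines (1020 CPM against 799 to 830 CPM), and Tek was at 0.0578 CPM there. Ccl21a was at 0.155 CPM in sorted 9 and 0 in the other 3.

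For 14 named genes the sorted-against-tumor change differed between a treatment and vehicle by the interaction test in edgeR at an adjusted p under 0.05. In the main fit 179 named genes were tested. Over all 20403 genes the interaction test called 0.113% with CD40 mAb and 5.46% with ATOR-4066. Cxcl1 differed by 5.3 on the log2 scale with CD40 mAb and by 3.34 with ATOR-4066. With ATOR-4066 the cell cycle genes Ccnb1 (2.89), Mki67 (2.66), Cdk1 (2.62), Mcm2 (1.44) and Pcna (1.17) differed upwards, as did Mmp9 (3.07), Sdc1 (2.73) and Egr1 (1.89). Ceacam1 (-2.63), Trem1 (-2.41), Dcn (-2.31), Cd40 (-2.01) and Lifr (-1.85) differed downwards. Mcm2 kept its call in 5 of 16 settings that leave out 1 library, Ccnb1 in 14 and Pcna in 15.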

How the results depend on the processing

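No paired analysis was possible because the sorted and the tumor libraries share no numbers in their titles. Against a minimum change of 2-fold (glmTreat) 3007 genes were higher and 3790 lower, in place of 5883 and 6812. Leaving out 1 library gave 5669 to 6163 higher and 6379 to 7145 lower. By DESeq2 6241 genes were higher and 8066 lower, and by voom with sample weights 4989 and 8582. With library totals alone they were 4865 and 8068, with the median of all genes at -0.38. On the pan-leukocyte scale 248 genes were higher with Ptprc alone, and leaving out 1 library gave 412 to 528 higher and 14866 to 15431 lower.

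The number of genes whose change differed with CD40 mAb, 23 by the test reported, was 36 with RLE factors, 505 with DESeq2 and 11 to 87 with 1 library left out. With ATOR-4066 the 1113 genes became 574 without a low-count filter, 2576 with DESeq2 and 298 to 1865 with 1 library left out. Among library measures, leaving out 1 library, the difference in haemoglobin share was 0.00740 to 0.0170 percentage points (largest without sorted 9, exact two-sided permutation p = 0.0286, against 0.143 with all libraries), in mitochondrial share -0.81 to -0.22, in the share of the 100 highest genes 1.42 to 1.72 and in genes with 10 counts -2091 to -1796.

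Of the 179 genes named and tested, 2 changed sign under some setting. With voom Cd79a was 0.16, in place of -1.22. With 1 library left out Cd79a was -1.59 to 1.67, above 0 without tumor 1, and Mrc1 was -0.14 to 0.096, above 0 without tumor 1 or sorted 9. On the pan-leukocyte scale, with Ptprc alone, Ace was -0.061, Cd4 -0.30, Csf3r -0.061, Irf8 -0.17 and Itgax -0.10. With median ratios Fcgr1 was 0.017. With 1 library left out on that scale, Cd4 was -0.17 to 0.29, Cd40lg -0.46 to 0.056, Clec9a -0.28 to 0.12, Fcgr1 -0.14 to 0.10 and Prdm1 -0.18 to 0.052. None of these genes had passed the threshold on the same scale with all libraries. Genes near 0 in the sorted cells are limited by depth, and 3 counts over that group are the floor of their folds.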

Other observations

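Among the 10 largest increases of all genes considered for naming were Slfn4, a schlafen gene of activated myeloid cells, with 1675, 620.4, 1833 and 1572 CPM in the sorted libraries against 55.8, 48.8, 40.1 and 38.996 CPM in the tumor libraries (4.96 ± 0.35), the long non-coding RNA Mirt1 (5.48 ± 0.52), and Ly6a2 (5.06 ± 0.25), Arhgef37 (5.03 ± 0.32) and Baiap3 (4.92 ± 0.35). Ly6a2 belongs to the Ly6 family of similar genes, so its value is uncertain. Among the 10 largest decreases outside the lists were Sparcl1, a matrix glycoprotein, with 0, 0, 0.155 and 0.144 CPM in the sorted libraries against 52.9, 47.1, 51.8 and 37.1 CPM in the tumor libraries (-9.23 ± 0.46), Tmem47, a junction-associated membrane protein (-8.58 ± 0.37), and Mmp3, the stromelysin of fibroblasts, with 0.262, 0, 0 and 0.116 CPM in the sorted libraries against 21.5, 18.9, 20.1 and 23.98 CPM in the tumor libraries (-7.66 ± 0.59).

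Of 6 Schwann cell and nerve genes tested 4 were lower and 2 higher, beside 39.3% and 33.9% of all genes. Mbp, a myelin gene whose locus also makes golli transcripts in lymphoid cells, was higher with 96.2, 114, 67.6 and 85.2 CPM in the sorted libraries against 20.6, 17.8, 12.1 and 12.8 CPM in the tumor libraries (2.52 ± 0.22). Of 8 plasma cell genes listed, 7 were tested and 4 were higher, among them Prdm1, a regulator that activated T cells and macrophages also use (2.50 ± 0.15), and Xbp1, a regulator of secretion (0.75 ± 0.10). Jchain, the joining chain of secreted antibodies, had 26.5, 4.87, 0.877 and 15.8 CPM in the sorted libraries against 20.9, 3.85, 0.563 and 1.62 CPM in the tumor libraries and was not called (adjusted p = 0.524).

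Ribosomal protein genes were lower in 9 of 15, by little (median -0.28), beside 39.3% of all genes. Rplp0, a ribosomal stalk protein, changed by -0.85 ± 0.11. Without tumor 5 the number was 5. Of 13 mitochondrial-encoded genes 4 were lower, again beside 39.3% of all genes. Without sorted 10, the library with the highest mitochondrial share, 10 were lower. Of the erythroid genes 4 of 5 tested were called higher, and none without sorted 7, the library with the most haemoglobin. Xist, the RNA of the inactive X chromosome (ENSMUSG00000086503, chromosome X, 103460366 to 103483254, minus strand), had 548, 398, 969 and 1128 CPM in the sorted libraries against 181, 173, 149 and 124 CPM in the tumor libraries (2.28 ± 0.31, adjusted p = 0.000124), with separate groups. The 4 Y-linked genes listed had no count in the sorted cells and no more than 0.0158 CPM in any tumor.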
